A study of Mus musculus with 2 samples.

Results

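The NF-κB subunit NFKB2 and the epithelial factor ELF3 were mapped by CUT&RUN in the same kind of cell, and the regions described here are those listed for NFKB2 and not touched by any listed ELF3 region. A region was taken when its interval on chromosomes 1 to 19 shared 0 bp with every ELF3 interval. Of 14060 NFKB2 regions on these chromosomes, 431 met this rule (3.07%, exact Clopper-Pearson 95% interval 2.79 to 3.36), and the other 13629 overlapped one of 66702 ELF3 regions by 1 bp or more. They are called NFKB2-only regions below, in the sense of the 2 lists and nothing more. The members were thus chosen by the measured positions of ELF3 regions, so their lack of ELF3 is not a finding, and their distances to ELF3 are given as a description.

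CUT&RUN tethers a nuclease to an antibody on chromatin, so that DNA around the bound protein is cut free and sequenced. The cells were primary cultures of renal tubular epithelium from kidneys of wild-type mice, and both libraries were made after stimulation with TNFα and IFNγ. There was 1 library with an ELF3 antibody and 1 with an NFKB2 antibody, both from batch 1, with no unstimulated library among them. The age and number of the mice, and the control used in peak calling, were not found in the labels used here. With 1 library per antibody no difference has a replicate check, so no p-value is given. Regions of 1 library are not replicates. The 95% intervals (exact binomial for shares, exact Poisson for fragments and densities, order statistics for medians) cover counting error only.

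NFKB2 encodes the precursor p100, which is processed to p52, and p52 with RELB forms the main DNA-binding dimer of the non-canonical NF-κB pathway. TNFα is best known as an activator of the canonical pathway, and one of its known effects is to raise transcription of the NFKB2 gene. ELF3 is a member of the ETS family of transcription factors, found mainly in epithelia and induced by inflammatory cytokines. Coordinates are printed as deposited, 1-based. The build is mm10 by the submitters' processing notes, but the lists contain sequence names of GRCm39; a genome or annotation of that build was not used here. Genes, transcript features and base sequences are therefore not assigned to these regions.

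NFKB2-only regions were mostly weak. Strength is given as the number of fragments over the summit, recovered from the deposited fold and −log10 p, and as the deposited −log10 q. The median NFKB2-only region held 12 fragments (quartiles 10 and 15, lowest 8), and the median overlapping region 16 (13 and 22). Of the 431 regions, 238 had 12 or fewer fragments (55.2%, 50.4 to 59.98), against 24.3% of all NFKB2 regions on these chromosomes. Only 50 reached 20 fragments (11.6%, 8.73 to 15.0), against 33.7% of all. The median −log10 q was 3.72 (quartiles 2.09 and 6.48) in NFKB2-only regions and 8.04 (4.60 and 13.98) in overlapping ones.

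The share of NFKB2 regions without ELF3 fell with each step in fragment number up to 30 fragments. These shares were taken where the background estimated by the caller was at its minimum (the floor), as it was for 310 of the 431 regions (71.9%, 67.4 to 76.1) and for 70.3% of all NFKB2 regions. At 8 to 9 fragments 92 of 739 regions lacked ELF3 (12.4%, 10.2 to 15.0), and at 10 to 11 fragments 81 of 1277 did (6.34%, 5.07 to 7.82). At 12 to 13 fragments the share was 3.31% (2.45 to 4.36) and at 17 to 20 fragments 1.44% (0.950 to 2.09). Above that it levelled out: 10 of 1816 regions at 21 to 30 fragments (0.551%, 0.264 to 1.01) and 4 of 693 at 31 or more (0.577%, 0.157 to 1.47) lacked ELF3. ELF3 regions at the floor are listed from 6 fragments and NFKB2 regions from 8, so ELF3 signal below that limit would not be seen at these places.

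**Figure D1:**
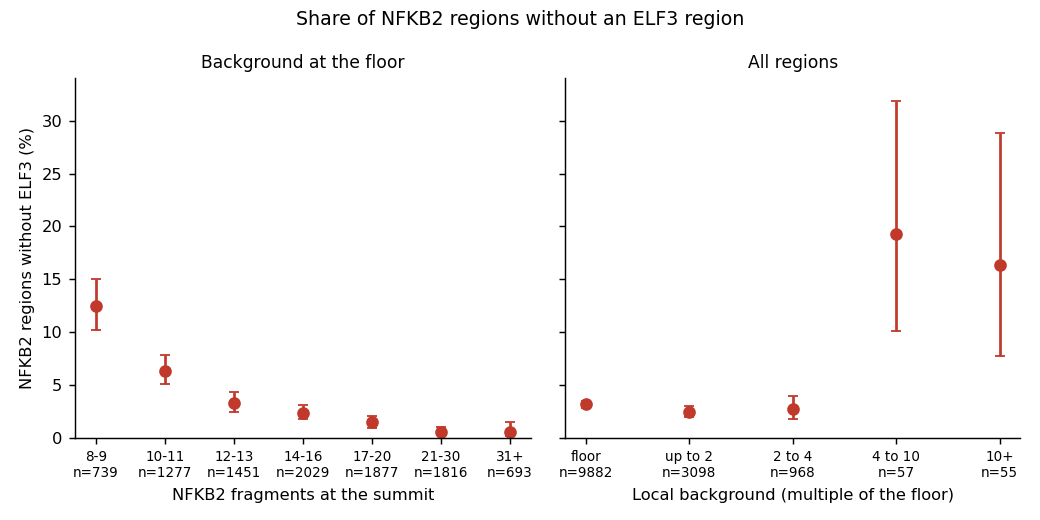
Percentage of NFKB2 regions on chromosomes 1 to 19 that overlap no ELF3 region, by fragments at the summit for regions at the floor (left) and by local background as a multiple of the floor for all regions (right). Points are shares and bars exact 95% binomial intervals; the share drops from 12.4% at 8 to 9 fragments to 0.577% at 31 or more, and stands at 19.3% and 16.4% in the 2 classes of highest background.

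At the floor, 6 NFKB2-only regions had 30 or more fragments, out of 762 NFKB2 regions of that strength. The strongest was chr12:110864572-110864985, with 43 fragments (31.1 to 57.9) over 414 bp and an 18.4-fold deposited enrichment; its summit was almost central, and the nearest ELF3 region lay 8829 bp away. The next was chr11:53709575-53710046, with 41 fragments (29.4 to 55.6) over 472 bp, 2370 bp from ELF3. Both stood above the 22 fragments that mark the upper quartile of overlapping regions. They were followed by chr11:87998290-87998691 with 33 fragments, chr3:53599956-53600303 with 31, and chr12:113109832-113110594 and chr2:28437674-28438218 with 30 each. The nearest ELF3 region lay at 1753 to 8829 bp for 5 of the 6 and at 14229 bp for the one on chromosome 2.

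A raised local background was more frequent among NFKB2-only regions. The background is the caller's estimate of signal expected around the summit, and it was 4 or more times the floor at 20 of 431 NFKB2-only regions (4.64%, 2.86 to 7.08), at 92 of 13629 overlapping ones (0.675%, 0.545 to 0.827) and at 0.797% of all. Read the other way, 20 of 112 NFKB2 regions with such a background lacked ELF3 (17.9%, 11.3 to 26.2), against 411 of 13948 with a lower one (2.95%, 2.67 to 3.24). The limit of 4 was set after the values were seen. At 2 to 4 times the floor the share without ELF3 was 2.69% (1.76 to 3.91), no higher than the 3.14% (2.80 to 3.50) at the floor. The part that this background has in the absence of an ELF3 call was not tested.

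These 20 regions took several of the highest places. Of the 5 NFKB2-only regions of highest −log10 q, 3 had a raised background, and of the first 10, 4 did. The first of all was chr17:13525778-13526409, with 398 fragments but a fold of only 2.33 over a background 125 times the floor, 96742 bp from any ELF3 region. The third was chr4:118404443-118405899, where 335 fragments were 2.47-fold over background and the background was 99.2 times the floor. The fifth was chr19:6790058-6790484, where the values were 145 fragments, 3.35-fold and 31.3 times. The highest background of all was at chr2:98492664-98493034, at 5618 times the floor, with 8530 fragments and a fold of only 1.12. The ELF3 region nearest to it, 4142 bp away, had 40049 ELF3 fragments over 351 bp and carried an NFKB2 region itself. The regions with raised background were also wider, with a median of 589.5 bp against 240 bp for the other 411, and farther from ELF3, at a median of 23345.5 bp against 7195 bp. Their median fold was 2.69, against 4.70 in the others. Width, distance and fold of overlapping regions with such a background are not given here. Of the 20, 8 were on chromosome 8, which held 806 of all 14060 NFKB2 regions. Of these 8, 5 belonged to 1 group described below, so 1 stretch enters this count and the medians above 5 times. How many overlapping regions with such a background were on chromosome 8 is not given here.

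NFKB2-only regions were narrower than overlapping ones. Their median width was 247 bp (quartiles 195 and 388, interval of the median 234 to 262), against 333 bp (224 and 607, 328 to 339). The rule itself favours narrow members, since a wider interval more readily reaches an ELF3 region and is then left out. How much of the difference this makes was not tested. Widths under 200 bp were found in 121 of them (28.1%, 23.9 to 32.6; 17.0% of all NFKB2 regions), close to the 160 bp of the narrowest region in the list. Widths over 1 kb were found in 23 (5.34%, 3.41 to 7.90; 11.1% of all). The widest was chr13:120059790-120061938, at 2149 bp, with 142 fragments over a background that was 49.6 times the floor. Next came chr11:3052793-3054743 at 1951 bp, with 16 fragments and a background 3.82 times the floor, and chr15:101328975-101330788 at 1814 bp, with 9 fragments at the floor.

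**Figure D2:**
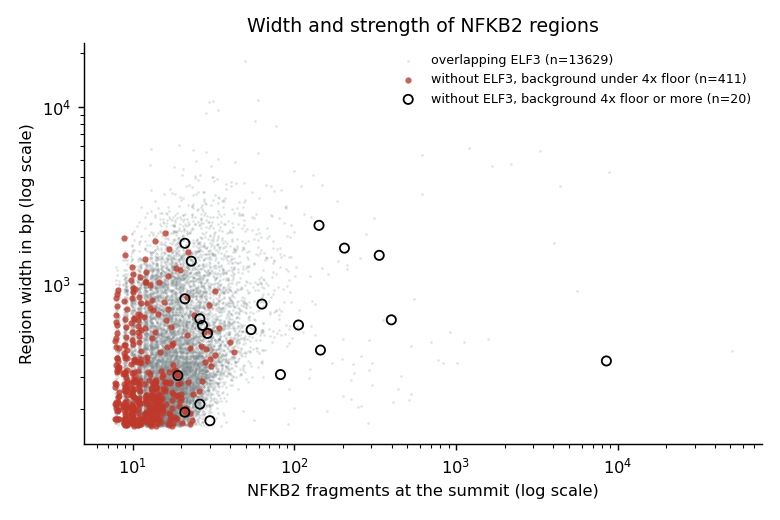
Width in bp against NFKB2 fragments at the summit, both on log scales, for each NFKB2 region on chromosomes 1 to 19; fragment numbers are jittered slightly except for the open circles. NFKB2-only regions (red) gather below 20 fragments, while the 20 with a background at least 4 times the floor (open circles) run from 19 to 8530 fragments.

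The difference in width was also seen at roughly like strength, which does not remove the effect of the rule on width. All NFKB2 regions were split into quintiles of −log10 q, and 237, 75, 72, 28 and 19 NFKB2-only regions fell into the lowest to the highest. Strength was not fully equal within them. From lowest to highest, median fragments were 10, 13, 15, 19 and 31 in NFKB2-only regions and 10, 13, 16, 20 and 29 in overlapping ones. In the lowest quintile their median width was 250 bp (interval of the median 223 to 275) against 292 bp (283 to 304) for overlapping regions. It was 229 bp (203 to 247) against 285.5 bp (276 to 296) in the second and 231 bp (221 to 262) against 280 bp (273 to 289) in the third. In the 3 lowest quintiles the intervals of the medians did not meet. In the fourth quintile the medians were 277.5 bp (202 to 325) and 329 bp (322 to 340). In the highest they were 437 bp (382 to 557) and 495 bp (477 to 513). In these 2 quintiles the intervals met.

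The summit lay farther from the middle in NFKB2-only regions, but without a constant order at roughly like strength. The offset is the distance from the middle of a region to its summit as a percentage of the distance from the middle to the edge, so that 0% is the centre and 100% the outermost base. Its median was 58.5% (51.0 to 62.9) in NFKB2-only regions and 45.2% (44.4 to 45.9) in overlapping ones. In bp the medians were alike, at 68 (59.5 to 74) and 67.5 (66 to 69). A summit within 10 bp of an edge was found in 35 NFKB2-only regions (8.12%, 5.72 to 11.1), against 2.49% of all NFKB2 regions. Within quintiles of −log10 q, median offsets were 74.2% (68.8 to 78.6) against 71.0% (69.0 to 72.7) in the lowest and 49.7% (41.0 to 59.7) against 51.9% (50 to 53.7) in the second. In the third they were 33.1% (29.6 to 41.1) against 43.1% (41.6 to 44.1), lower in NFKB2-only regions and with intervals that did not meet. The fourth had 35.2% (21.8 to 47.1) against 34.4% (33.0 to 36.0), and the highest 41.2% (6.46 to 51.0) against 32.4% (30.8 to 33.3). Over all NFKB2 regions the weakest thus had the most lateral summits, and 237 of the 431 NFKB2-only regions were in that quintile. Among regions with −log10 q of 5 or more the medians were 36.6% and 38.1%, so the difference was not seen there.

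**Figure D3:**
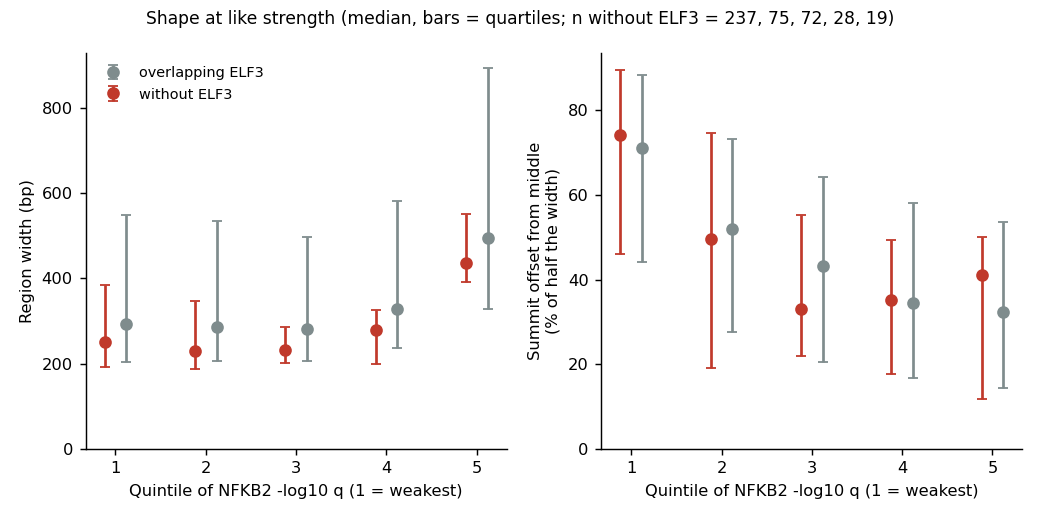
Median width in bp (left) and median summit offset as a percentage of the distance from middle to edge (right) by quintile of NFKB2 −log10 q, for NFKB2-only (red) and overlapping (grey) regions; bars span the quartiles. Red medians of width lie below the grey ones in all 5 quintiles, from 250 against 292 bp in the lowest to 437 against 495 bp in the highest, whereas the red medians of the offset lie above the grey ones in some quintiles and below them in others.

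Most NFKB2-only regions had an ELF3 region within 10 kb. The median distance, edge to edge, to the nearest ELF3 region was 7564 bp (quartiles 2680.5 and 20639.5, interval of the median 6372 to 8829). For overlapping NFKB2 regions the nearest ELF3 region other than those they overlapped was 5446 bp away in the median (2633 and 12380, 5321 to 5586). The order turned, to 4521 against 5442 bp, when regions covered by under 50% of the shorter one also counted as lacking ELF3, since a region that touches ELF3 is at 0 bp. An ELF3 region lay within 10 kb of 248 NFKB2-only regions (57.5%, 52.7 to 62.3). One not overlapped lay within 10 kb of 68.9% of all NFKB2 regions. None within 100 kb was found for 8 (1.86%, 0.805 to 3.62). Apart from those overlapped, none was found within 100 kb for 0.533% of all NFKB2 regions. Within 100 kb there were a median of 9 ELF3 regions around NFKB2-only regions and of 11 others around overlapping ones.

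The distances began at a few bases. The nearest was chr6:94217724-94218316, 11 bp from ELF3, with 8 fragments, followed by chr17:34337042-34337252 at 13 bp with 13 fragments and chr2:31135425-31135810 at 17 bp with 8. Just outside the rule were chr9:115220174-115220712, which shared 1 bp with ELF3 and had 14 fragments, chr11:3467072-3467375 with 6 bp and chr6:37184106-37184384 with 7 bp, both with 11 fragments. On either side of the limit 5 regions lay within 50 bp of ELF3 without touching it, and 15 overlapped by 50 bp or less. The farthest were chr5:85017459-85017626 at 452139 bp with 9 fragments, chr2:83183818-83184108 at 243704 bp with 13 and chr12:113388213-113388787 at 201570 bp with 17.

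The 25 regions within 1 kb of ELF3 (5.80%, 3.79 to 8.44) were weaker and wider than the rest, with more lateral summits. An ELF3 region not overlapped lay that near to 0.455% of all NFKB2 regions. Since ELF3 regions are at least 1001 bp apart, an overlapping region rarely has a further ELF3 region that near, and the 2 sets cannot be compared at this range. The 25 had a median of 10 fragments and at most 13, and a median width of 359 bp (quartiles 211 and 593). The 223 regions at 1 to 10 kb had medians of 12 fragments and 242 bp, and the 156 at 10 to 50 kb 12 fragments and 240 bp. The summits of the nearest 25 were lateral, with a median offset of 84.1% against 55.8% at 1 to 10 kb. Their median −log10 q was 2.09, against 3.72 at 1 to 10 kb. All NFKB2-only regions of the lowest quintile of −log10 q had a median offset of 74.2%. Shape by distance at like strength was not tested. In 14 of the 25 the summit was on the side facing ELF3, and over all NFKB2-only regions 213 were (49.4%, 44.6 to 54.2). Over all NFKB2 regions the share facing the nearest ELF3 region not overlapped was 50.1%.

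Counted per length of sequence, NFKB2-only summits were most frequent at 1 to 5 kb from ELF3. Between the first and the last ELF3 region of each chromosome there were 2353 Mb without ELF3 and 426 NFKB2-only summits, or 0.181 per Mb. The density was 0.367 per Mb (0.263 to 0.498) at 1 to 2 kb from an ELF3 edge, 0.347 (0.280 to 0.426) at 2 to 5 kb and 0.287 (0.231 to 0.354) at 5 to 10 kb. It fell to 0.193 (0.151 to 0.242) at 10 to 20 kb and to 0.0413 (0.0274 to 0.0597) beyond 50 kb. Nearer than 1 kb the values rest on few summits: 7 at 0 to 0.25 kb and 7 at 0.25 to 0.5 kb each gave 0.210 per Mb (0.0844 to 0.433), and 9 at 0.5 to 1 kb gave 0.143 (0.0652 to 0.271). These 3 intervals met the one at 1 to 2 kb. The rule itself lowers the density there, since a region whose summit is close to an ELF3 edge is left out when its own edge reaches ELF3. Within ELF3 regions there were 291.8 NFKB2 summits per Mb. Sequence that reads cannot be placed on was not removed from these lengths, and how much of it lies far from ELF3 was not tested.

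**Figure D4:**
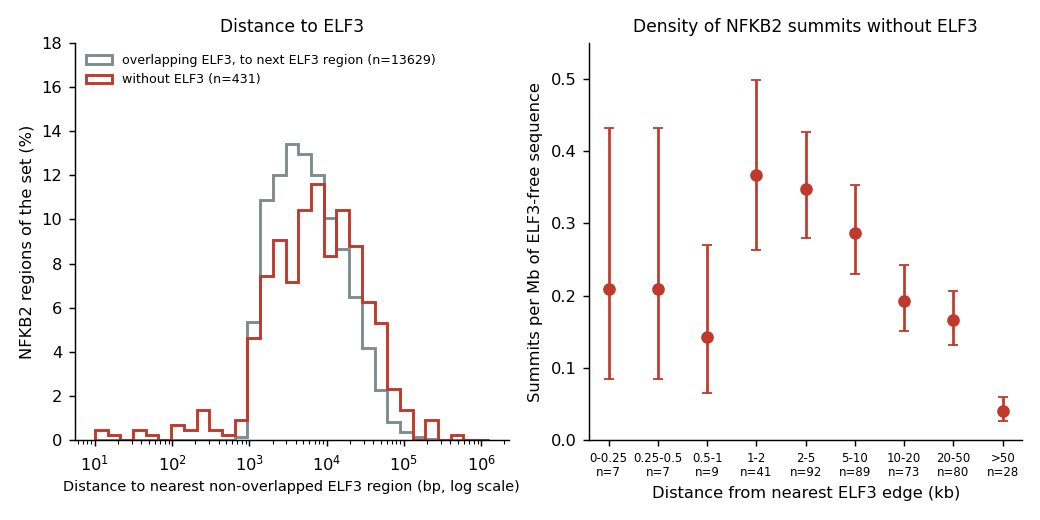
Left, distance in bp (log scale) to the nearest ELF3 region not overlapped, as a percentage of each set, for 431 NFKB2-only regions (red) and 13629 overlapping regions (grey). Right, NFKB2-only summits per Mb of ELF3-free sequence by distance in kb from the nearest ELF3 edge, with exact 95% Poisson intervals; the density peaks at 0.367 per Mb at 1 to 2 kb and is 0.0413 beyond 50 kb.

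The ELF3 regions next to NFKB2-only regions resembled those next to other NFKB2 regions. The nearest had a median of 21 ELF3 fragments and a width of 451 bp (393 to 523), against 22 fragments and 481 bp (471 to 491) around overlapping regions. Of these nearest ELF3 regions 139 carried an NFKB2 region themselves (32.3%, 27.9 to 36.9). The share was 27.9% over all NFKB2 regions, and 19.9% of all ELF3 regions on these chromosomes carried NFKB2.

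NFKB2-only regions had about as many NFKB2 neighbours as other NFKB2 regions. The nearest other NFKB2 region was 24829 bp away in the median (interval 20185 to 28805), against 20207 bp (19517 to 21017) for overlapping ones. One lay within 10 kb of 135 of them (31.3%, 27.0 to 35.9; 33.7% of all NFKB2 regions) and within 100 kb of 362 (83.99%, 80.2 to 87.3; 85.9% of all). The most isolated were chr15:22799856-22800884, 2564688 bp from any other NFKB2 region, chr9:29560362-29560524 at 1380761 bp and chr2:46171914-46172213 at 1324482 bp. All 3 had an ELF3 region within 50 kb, at 17955, 48164 and 26253 bp.

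Neighbours without ELF3 were more frequent around NFKB2-only regions than around other NFKB2 regions. The rule itself favours this, since a neighbour in the same ELF3-free stretch as a member lacks ELF3 too. How much of the difference this makes was not tested. A further NFKB2-only region lay within 100 kb of 77 of the 431 (17.9%, 14.4 to 21.8), against 8.61% (8.14 to 9.09) of overlapping regions and 8.89% of all. Within 10 kb there was one for 20 (4.64%, 2.86 to 7.08), against 1.34% of all. At both distances such regions count each other, so the intervals given for the 77 and the 20 are too narrow. The nearest other NFKB2 region itself lacked ELF3 in 39 cases (9.05%, 6.51 to 12.2), against 3.07% of all. Some of the 39 are each other's nearest region, so this interval is too narrow as well. Without the 4 groups described next the share within 100 kb was 14.5%, and over regions at the floor alone it was 10.97%, against 6.79% of overlapping regions at the floor.

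When NFKB2-only regions up to 100 kb apart were joined, 354 stood alone, 60 formed 30 groups of 2, and 17 formed 4 groups of 3 or more. The largest group had 7 regions between 21189700 and 21246702 on chromosome 8, a stretch of 57.0 kb with no ELF3 region and no overlapping NFKB2 region inside it. From left to right its summits held 24, 21, 26, 21, 21, 23 and 22 fragments. Its backgrounds ran from 3.05 to 6.87 times the floor and were 4 or more times the floor in 5 of the 7. Widths ran from 172 to 1704 bp, and 4 of the 7 were over 800 bp wide, against a median of 247 bp over all NFKB2-only regions. The fragment numbers of the 7 were thus nearly equal, while their widths were not.

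The other groups differed in background. On chromosome 11, 3 regions between 3050371 and 3085764 had 32, 16 and 19 fragments at backgrounds of 3.82 to 4.16 times the floor, with 1 ELF3 region in the stretch. On chromosome 19, 3 regions within 5.74 kb, from 24890053 to 24895790, had 19, 12 and 11 fragments at 1 to 1.67 times the floor, at least 40270 bp from ELF3. On chromosome 6, 4 regions spread over 130 kb from 114507355 to 114637321 had 11, 8, 13 and 9 fragments at 1 to 1.38 times the floor. No overlapping NFKB2 region lay inside any of the 4 groups.

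**Figure D5:**
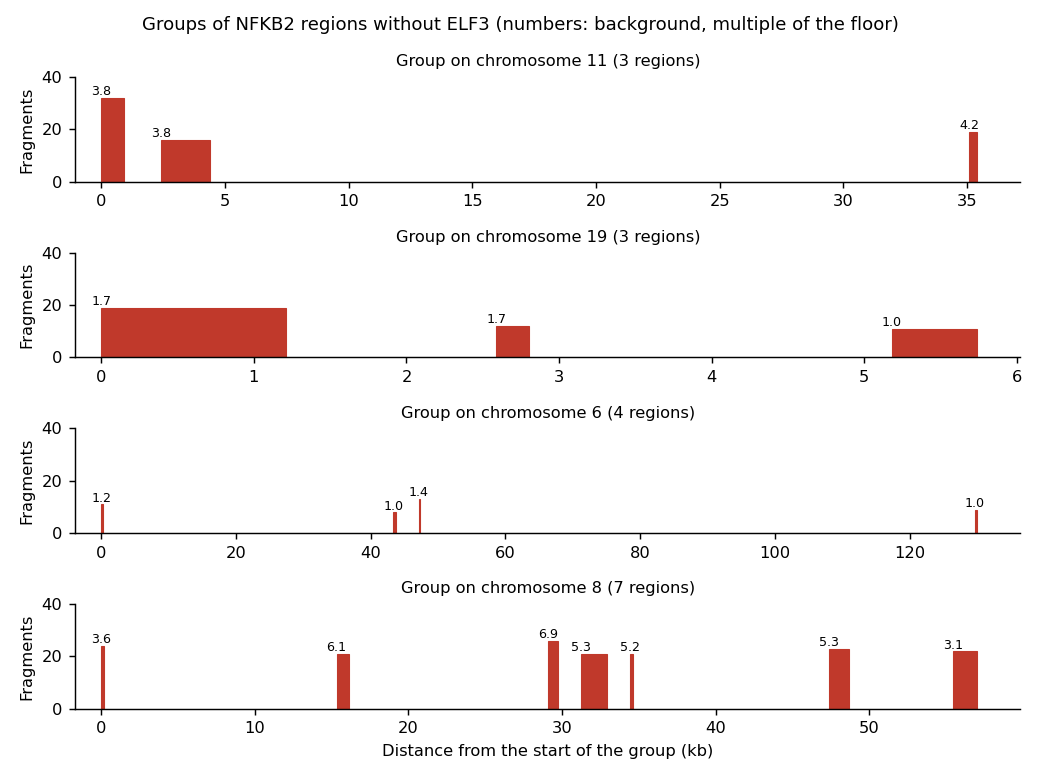
The 4 groups of 3 or more NFKB2-only regions, joined over gaps of up to 100 kb; each bar is a region, with its width to scale in kb from the start of the group, its height the fragments at the summit, and the number above it the local background as a multiple of the floor. The group on chromosome 8 has 7 regions of 21 to 26 fragments, and the group on chromosome 6 has 4 of 8 to 13.

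NFKB2-only regions were found on each of the 19 autosomes. Chromosome 2 had most, with 44 of 1079 NFKB2 regions (4.08%, 2.98 to 5.44), followed by chromosome 11 with 43 of 1207 (3.56%, 2.59 to 4.77). The highest share was on chromosome 6, at 30 of 714 (4.20%, 2.85 to 5.94). The lowest were on chromosome 10, at 12 of 719 (1.67%, 0.865 to 2.90), and on chromosome 1, at 16 of 920 (1.74%, 0.997 to 2.81). Chromosomes 1 and 10 were the 2 of 19 whose interval left out the pooled 3.07%, and both lay below it. The 8 raised-background regions are among the 32 on chromosome 8, where the share was 3.97% (2.73 to 5.56).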

How the data were processed

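Peak lists of 2 CUT&RUN libraries were used, 1 per antibody. MACS2 is named as the peak caller in the submitters' processing notes; its version and settings, the aligner and the filters on reads are not given in the sources here. The authors' deposited lists give per region a start, an end, a summit, a score (10 times −log10 q, in whole numbers), a fold (a ratio, summit signal over local background), −log10 p and −log10 q. No depth is listed. Fragments and background at each summit were solved from the deposited fold and −log10 p under the caller's Poisson model, within 0.01 of −log10 p (scaled up above 100), for 100% of regions in both lists; on 5937 simulated NFKB2 regions 99.97% were right. The match to −log10 p is not a separate check, since fragments and background were solved to meet it. The 99.97% was not split by background, so it does not show how well regions of raised background were recovered. Fragment numbers of regions with very high background rest most on this model, and their recovery was not tested.

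Overlap needed 1 bp or more; distances run edge to edge. Members, lists and limits were chosen with earlier results of these data known. Named regions are the 5 of highest −log10 q and the 3 widest, nearest, farthest and most isolated. Groups of 3 or more and the 3 just outside the rule are also named. The strongest at the floor and the region of highest background were chosen after their values were seen. Planned motif, annotation and gene list work needs a genome of the files' build and was not run. Python 3.11.15, numpy 2.4.6, pandas 2.3.3, scipy 1.17.1 and matplotlib 3.10.9 were used.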

Additional observations from a re-analysis of the deposited data

How the results depend on the processing

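Values were compared with counts within 1.5 times 431, or with the 95% interval of the main median; 35 of 44 alternative values stayed inside. Settings on the local background and on the groups were chosen after seeing the data. With NFKB2 −log10 q of 5 or more, 161 NFKB2-only regions remained by construction, the median distance to another NFKB2 region was 30573 bp (overlapping regions 27374.5 bp) and the median summit offset 36.6% (38.1%), so the higher offset of NFKB2-only regions ended there. With only ELF3 regions of −log10 q of 5 or more, 696 NFKB2 regions lacked ELF3 and their median width was 274.5 bp (333 bp). With overlap of 50% of the shorter region the distance to ELF3 was 4521 bp (5442 bp), turning the order because touching regions count as 0 bp, the width 276 bp (332 bp) and the offset 64.5% (44.8%). At the floor alone, 310 NFKB2-only regions were left and 10.97% had another NFKB2-only region within 100 kb. The share of overlapping regions was lower at the floor too, at 6.79% against 8.61%. The cause was not tested. No paired analysis was possible because each antibody has 1 library and no test was run.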

Other observations

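Outside chromosomes 1 to 19 a further 17 NFKB2 regions had no overlapping ELF3 region, which brings the whole list to 448. Of these, 8 were on chromosome X, out of 123 NFKB2 regions there.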
